A study of Homo sapiens with 6 samples.

Results

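A set of 53 genes of G2 phase and mitosis was followed in A375 cells, a human melanoma line, carrying an empty vector or overexpressing HMGB2, a DNA-bending chromatin protein. The genes were taken from a list of symbols chosen by function rather than by a measured threshold, and were matched through their Ensembl IDs to the 58302 gene IDs of the count tables. All 53 were found, and all 53 averaged at least 10 normalized counts and received an adjusted p-value. The list spans 7 roles: mitotic entry (11 genes), the spindle checkpoint and anaphase switch (8), the chromosomal passenger complex (4), the kinetochore (6), the spindle and its motors (10), cytokinesis (8) and chromosome condensation and structure (6).

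Poly(A)-selected RNA was sequenced from 6 libraries, 3 labelled A375 cells with an empty vector (EV) and 3 labelled A375 cells overexpressing HMGB2 (OE). The study asked what a raised level of HMGB2 does to gene expression in melanoma cells, and compared the OE line with the EV line. The study's methods describe the OE line as a stable line made by lentiviral transduction and drug selection, and the labels name no other treatment or allele in either group. The study's reporting form describes the 3 replicates as technical, so the p-values below measure the spread between cell pellets of a line and not between independent transductions.

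Cells that pass from G2 into mitosis switch on cyclin-dependent kinase 1 bound to its A and B cyclins, and then build a spindle, attach chromosomes to it through kinetochores and hold anaphase until the spindle checkpoint is satisfied. Most genes of these steps are transcribed in late S, G2 and M phase and shut off in G1, so that bulk transcript levels follow both the share of cells in G2 and M and the transcript content of those cells. Their promoters commonly carry CCAAT boxes, bound by the NF-Y factor, and a CHR element, through which the DREAM complex represses and B-MYB and FOXM1 complexes activate transcription. In bulk libraries more or fewer cells in G2 or M and more or less RNA per such cell cannot be told apart.

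Between 45925053 and 56755212 reads were assigned to genes per library. HMGB2 (chr4:173331376-173334432, minus strand) had 7250, 7729 and 7562 normalized counts in the EV libraries and 15090, 16850 and 14610 in the OE libraries, a rise of 1.05 ± 0.10 on the log2 scale (SE, DESeq2 adjusted p = 4.4e-22) in the direction of the labels. The third EV library stood apart from the other EV libraries. Its counts differed from those of EV 1 and EV 2 by a chi-square per degree of freedom of 73.9 and 81.5, against 13.5 between EV 1 and EV 2 and 33.5 between EV 3 and OE 3. Results are therefore given with and without it. Of 11 melanoma markers, PRAME (8096 to 9294), S100B (3346 to 3841) and MITF (1381 to 1719) were well counted in all 6 libraries, while the pigment genes MLANA, TYR and DCT did not exceed 10.8 normalized counts in any. SOX10 was listed at 0 in all 6, against 28863 to 56464 stranded reads, and PMEL had 49.6 to 67.0, against 1529 to 2017 stranded reads. AXL was lower in OE (-0.69, DESeq2 adjusted p = 8.58e-05) and S100A4 higher (0.91, adjusted p = 2.47e-06), so the listed markers were not all stable between the lines. Another 10 markers of blood, endothelial, epithelial and stromal cells summed to 3318 to 5087 normalized counts in EV and 4746 to 6009 in OE. Of the 10, 0 were called. COL1A1 (1609 to 3938), PDGFRB (695.4 to 860.9) and KRT14 (420.6 to 694.4) were the best counted, and PTPRC, the leukocyte marker, was at 0 throughout. The keratin gene KRT5, also among the 10, had 5.05, 11.5 and 279 in EV and 249.8, 199.9 and 289.2 in OE. Its EV 3 value thus lay with the OE libraries. The part of these markers in the results was not tested.

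The mitotic genes were slightly higher in the OE line as a group, and 8 of 53 passed the test, all of them higher: the kinesins KIF20A, KIF18A and KIF11, the checkpoint kinase gene BUB1B, and GTSE1, DLGAP5, NUSAP1 and ANLN, which act on spindle microtubules or the cleavage furrow. A gene was called at a DESeq2 Benjamini-Hochberg adjusted p under 0.05, computed over all genes. Values per library are DESeq2 normalized counts in the order of the replicates, and fitted changes are log2 fold changes of OE against EV ± SE. None of the 53 was called lower, and at an unadjusted p under 0.05 there were 13 higher and 0 lower. By edgeR, 3 were called higher (KIF20A, BUB1B and KIF18A) and 0 lower. Over all 18836 genes with an adjusted p, 930 were called (4.94%), 432 higher (2.29%) and 498 lower (2.64%). The changes were small. The median log2 fold change of the 53 genes was 0.19 and that of all tested genes 0.00, and KIF20A alone reached a 1.5-fold difference. The fitted change was positive for 49 of 53 (92.5%; 48 with TMM factors, where CENPE was just below 0, 43 without EV 3 and 44 without OE 2), against 50.4% of all tested genes. Between their 10% and 90% quantiles the mitotic genes ran from 0.04 to 0.41, inside the -0.42 to 0.44 of all genes.

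**Figure D1:**
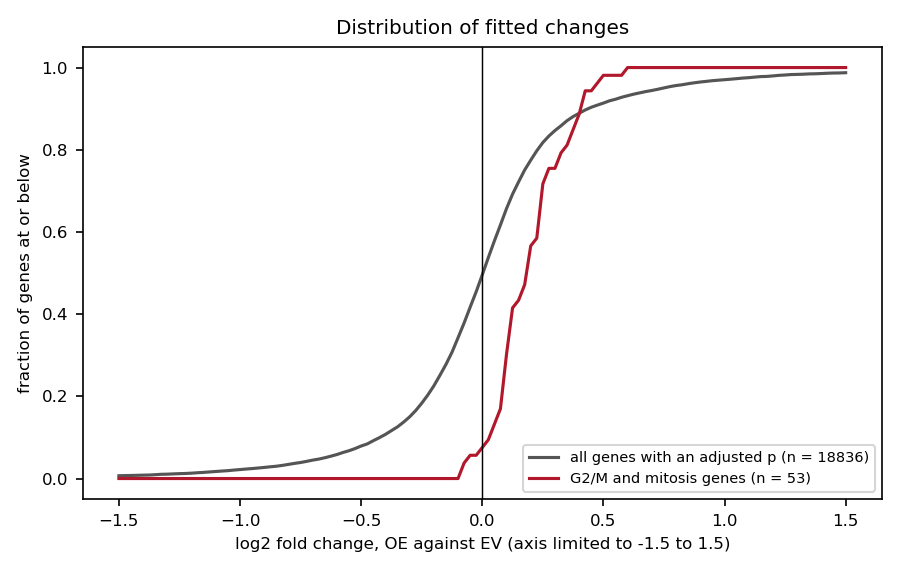
Fraction of genes (vertical axis) with a fitted log2 fold change, OE against EV, at or below the value on the horizontal axis, for the 53 G2/M and mitosis genes (red) and all 18836 genes with an adjusted p (grey). The red curve crosses 0.5 at the median of 0.19 while the grey curve does so close to 0, and the red curve is the steeper because the mitotic genes include no large fall and no large rise.

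The count of called genes depended on single libraries, while the median fitted change stayed between 0.14 and 0.23. Without EV 3, 24 were called higher and 1, MKI67, lower, where 8.31% of all genes were called higher and 9.46% lower. Without EV 1, OE 2 or OE 3 in turn, 1 (KIF20A) was called higher each time, with 0.839%, 1.15% and 0.941% of all genes. Without EV 2 there were 6 (1.09% of all genes), and without OE 1 there were 2, BUB1B and KIF20A (1.04%). By edgeR, with 3 mitotic genes called, 1.28% of all genes were called higher. With 1 gene called, the share of the 53 stays close to that of all genes.

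The third replicate of each group could also be treated as a batch, since EV 3 and OE 3 deviated from the other libraries together. The labels name no batch. A DESeq2 fit with a term for the third replicates called 26 mitotic genes higher and 0 lower (8.71% of all genes higher), and a fit of replicates 1 and 2 alone called 24 higher and 1, MKI67, lower (8.01%). The 24 genes called higher without EV 3 were the 24 called with replicates 1 and 2 alone, and all 24 were among the 26. Within replicates 1 and 2, the ratio of the group means was above 1 for 46 of 53 genes with a median log2 of 0.21, against 50.3% and 0.00 for all genes. Between OE 3 and EV 3 alone it was above 1 for 51 of 53 with a median of 0.15, against 52.5% and 0.02.

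The 6 libraries could be placed in order by the level of the mitotic genes. The median over the 53 genes of the log2 normalized count, each gene centred on its mean over the 6 libraries, was -0.20, -0.12 and -0.04 in EV 1, EV 2 and EV 3 and 0.03, 0.12 and 0.20 in OE 1, OE 2 and OE 3. The groups did not overlap, and EV 3 and OE 1 lay about as close to each other as EV 2 and EV 3. Reads of the 53 genes made up 0.410%, 0.421% and 0.437% of assigned reads in EV and 0.452%, 0.485% and 0.491% in OE, again without overlap. Gene by gene, all 3 OE values lay above all 3 EV values for 14 of 53, and for 0 all lay below, where 11.4% of the 16692 genes averaging at least 10 normalized counts separated in each direction.

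**Figure D2:**
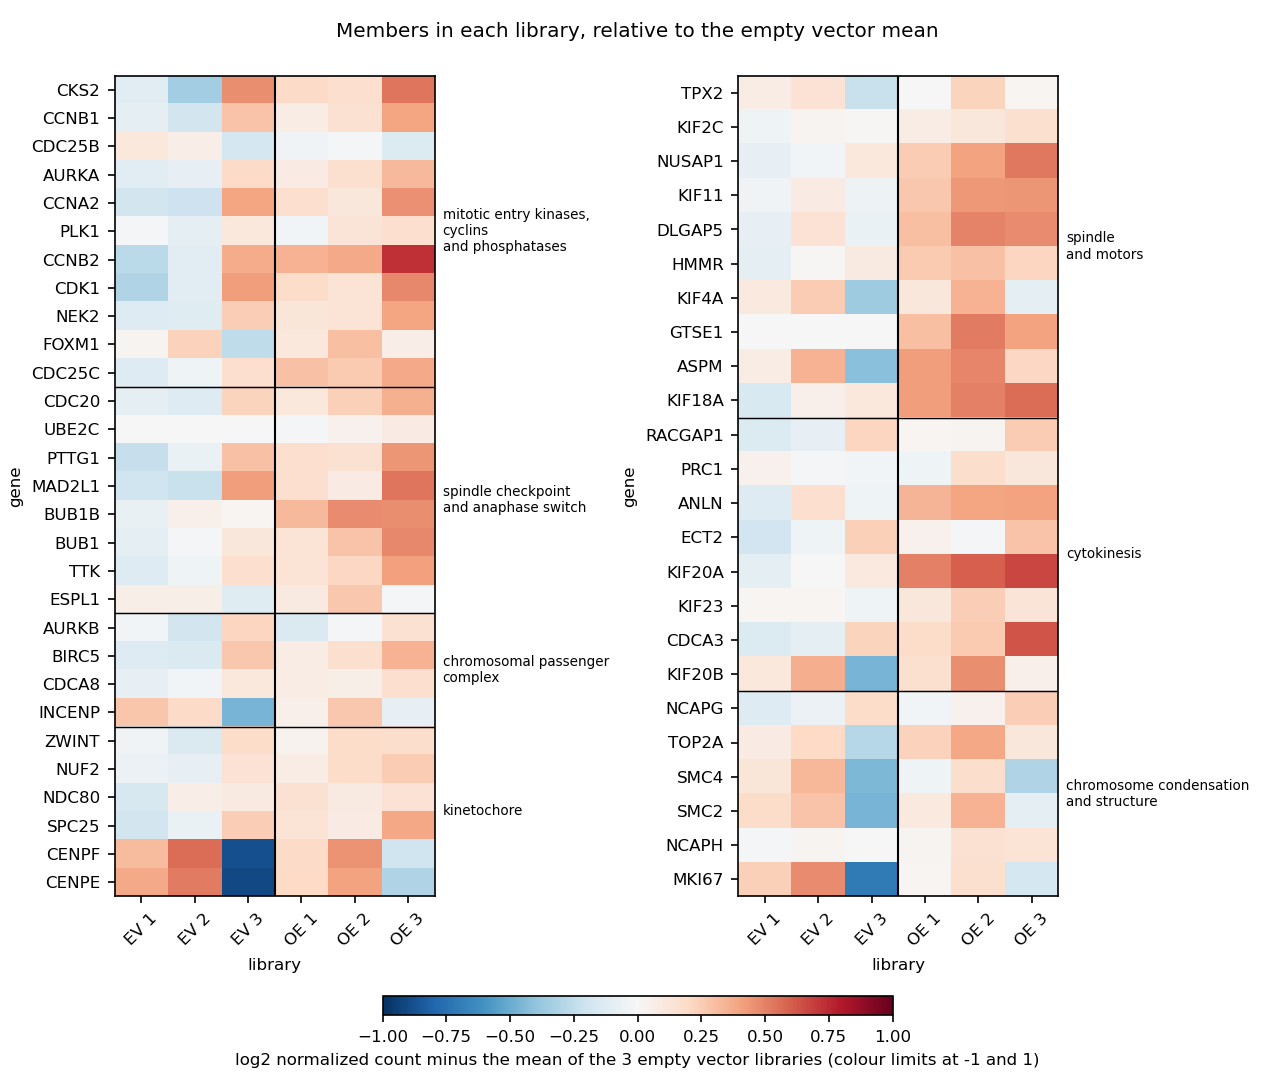
Log2 normalized count of each of the 53 genes (rows, by role) in each of the 6 libraries (columns), minus the mean of the 3 EV libraries. Most rows are redder in the OE columns, and the EV 3 column mixes red rows such as CKS2 and CDK1 with blue ones such as CENPF, CENPE and MKI67.

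Promoter sequences are shown for 5 of these genes, since the CHR element and the CCAAT box are what this class of genes is known to share. The windows are RefSeq's, on GRCh38.p14, and run 250 bases before to 50 bases after a transcript start. Such a window was given for 46 of the 53 genes, 59 windows in all, and for 7 (UBE2C, RACGAP1, TTK, AURKA, FOXM1, TPX2 and BIRC5) none was used. Each is printed 5′ to 3′ on the gene's strand, with capitals marking CHR elements (TTTGAA, or TTCAAA where it lies on the opposite strand) and CCAAT boxes (CCAAT, or ATTGG on the opposite strand). CCNB1, CDC20 and PLK1 stand for the cell cycle core, and KIF20A and ANLN are the called genes with the highest and lowest fitted change.
CCNB1 promoter, chr5:69166900-69167199, plus strand: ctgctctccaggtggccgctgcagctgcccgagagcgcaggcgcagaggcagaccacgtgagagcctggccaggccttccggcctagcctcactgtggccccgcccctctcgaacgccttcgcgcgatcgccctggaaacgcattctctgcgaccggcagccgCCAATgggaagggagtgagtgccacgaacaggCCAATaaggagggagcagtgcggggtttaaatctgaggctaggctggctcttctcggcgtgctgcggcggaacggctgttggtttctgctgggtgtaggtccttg
CDC20 promoter, chr1:43358731-43359030, plus strand: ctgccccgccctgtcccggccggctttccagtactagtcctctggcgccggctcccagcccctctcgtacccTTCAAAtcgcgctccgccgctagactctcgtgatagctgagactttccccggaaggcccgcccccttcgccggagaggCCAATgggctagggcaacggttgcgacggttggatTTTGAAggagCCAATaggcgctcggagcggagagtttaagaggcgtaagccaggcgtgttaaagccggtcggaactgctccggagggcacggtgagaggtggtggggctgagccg
PLK1 promoter, chr16:23678639-23678938, plus strand: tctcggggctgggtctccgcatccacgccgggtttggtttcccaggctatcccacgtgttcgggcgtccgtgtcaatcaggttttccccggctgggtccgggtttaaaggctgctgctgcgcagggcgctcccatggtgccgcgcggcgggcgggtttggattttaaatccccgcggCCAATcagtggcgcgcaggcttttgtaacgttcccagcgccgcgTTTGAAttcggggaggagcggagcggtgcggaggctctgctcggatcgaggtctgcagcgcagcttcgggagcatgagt
KIF20A promoter, chr5:138178862-138179161, plus strand: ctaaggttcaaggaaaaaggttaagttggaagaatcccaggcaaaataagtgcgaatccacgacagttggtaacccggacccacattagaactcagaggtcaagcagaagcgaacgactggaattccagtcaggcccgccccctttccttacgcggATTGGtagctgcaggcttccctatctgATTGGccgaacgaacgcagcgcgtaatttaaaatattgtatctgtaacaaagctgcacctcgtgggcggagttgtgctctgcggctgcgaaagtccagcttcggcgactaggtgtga
ANLN promoter, chr7:36389612-36389911, plus strand: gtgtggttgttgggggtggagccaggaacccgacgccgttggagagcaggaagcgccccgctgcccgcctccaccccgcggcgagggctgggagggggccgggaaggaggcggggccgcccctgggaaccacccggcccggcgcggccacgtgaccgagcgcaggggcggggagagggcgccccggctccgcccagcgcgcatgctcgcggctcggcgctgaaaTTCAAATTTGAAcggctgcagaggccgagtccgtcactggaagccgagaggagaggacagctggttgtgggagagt
CCNB1 and KIF20A held 2 CCAAT boxes each and no TTTGAA, PLK1 held 1 of each motif, and CDC20 held 2 of each. ANLN held 2 CHR elements next to each other on opposite strands and no CCAAT. No match means only that these letters are not in the window.

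TTTGAA, searched on both strands, was found in 39 of the 59 windows (66.1%) and in 15.2% of all 35116 RefSeq promoter windows. CCAAT was found in 43 (72.9%), against 34.6% of all windows, and both motifs in 31 (52.5%), against 5.9%. TTTNNCGC, an E2F site, was found in 6 (10.2%), against 6.89%. Matches were placed per window, so a site in overlapping windows of the same gene was counted more than once. The CHR matches clustered at the start, with 37 of 52 between 50 bases before and 49 bases after it and a median position of -28. The CCAAT matches lay further upstream, 60 of 87 between 150 and 51 bases before the start, with a median of -75. Among the 8 called genes, each with 1 window, 7 held TTTGAA and 6 held CCAAT, and among the 51 windows of genes not called 32 (62.7%) and 37 (72.5%) did.

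Of the 11 genes of mitotic entry, 0 were called, where 2.29% of all genes were called higher and 2.64% lower. A positive fitted change was found for 10, and the median of the 11 was 0.21. The difference between EV 3 and the other EV libraries was large here. Without EV 3 there were 8 of 11 called higher, where 8.31% of all genes were. Without EV 1, EV 2, OE 1, OE 2 or OE 3 there were 0, where 0.839% to 1.15% of all genes were. CDK1 (chr10:60778331-60794852), the kinase that drives entry into mitosis, had 3516, 4011 and 5789 normalized counts in EV and 4934, 4764 and 6054 in OE. Its EV 3 value exceeded OE 1 and OE 2, so the groups overlapped, and the fitted change was 0.24 ± 0.19 (adjusted p = 0.648). Without EV 3 it was 0.48 and CDK1 was called, as it was with replicates 1 and 2 alone, at 0.37. Without EV 1 the fitted change was 0.10 and without OE 3 it was 0.13, and CDK1 was called in neither fit.

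The B cyclins bind and activate CDK1. CCNB1 (chr5:69167135-69178245) had 11510, 10880 and 14990 in EV and 13000, 13680 and 16230 in OE, with a fitted change of 0.20 ± 0.15 (adjusted p = 0.642). CCNB2 (chr15:59105126-59125045), which had the third-highest fitted change of the 53 genes, had 2806, 3143 and 4356 in EV and 4295, 4384 and 5609 in OE, and at 0.47 ± 0.18 it did not pass (adjusted p = 0.126). In both genes EV 3 was the highest EV library and OE 3 the highest of all 6, and the groups overlapped, in CCNB2 only because EV 3 (4356) exceeded OE 1 (4295). Without EV 3 both were called, at 0.35 for CCNB1 and 0.68 for CCNB2. With replicates 1 and 2 alone both were called as well, at 0.25 and 0.55.

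AURKA (chr20:56369389-56392337), the centrosome kinase, had 5121, 5210 and 6287 in EV and 5836, 6171 and 6909 in OE (0.19 ± 0.13, adjusted p = 0.567). It too was called without EV 3. PLK1 (chr16:23677656-23690367), the polo-like kinase of mitotic entry and exit, had 7770, 7348 and 8420 in EV and 7703, 8569 and 8823 in OE (0.09 ± 0.11, 95% interval -0.12 to 0.30, adjusted p = 0.81), and was called in none of the 15 alternative fits. Of the 50-base words of PLK1's annotated transcripts, 10.7% also occur in other annotated genes.

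FOXM1 (chr12:2857680-2877174), a transcription factor of G2/M genes, had 2530, 2910 and 2085 in EV and 2668, 3059 and 2604 in OE. The groups overlapped, EV 2 (2910) lying above OE 1 and OE 3, and the fitted change of 0.15 ± 0.15 did not pass (adjusted p = 0.763). CDC25B (chr20:3786772-3806121), a phosphatase that activates CDK1, had one of the 3 lowest fitted changes, with 11600, 11270 and 9556 in EV and 10540, 10660 and 9788 in OE (-0.07 ± 0.11, adjusted p = 0.889). The column for reads of either strand kept 72.3% of FOXM1's stranded reads and 64.7% of those of CDC25C, since both genes overlap a neighbour. The other 4 genes of the role, cyclin gene CCNA2, the CDK1 subunit gene CKS2, the centrosome kinase gene NEK2 and the phosphatase gene CDC25C, had fitted changes from 0.21 to 0.31, CDC25C alone without overlap between the groups. All 4 were called without EV 3.

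In the spindle checkpoint and anaphase switch, 1 of 8 genes was called, BUB1B, where 2.29% of all genes were called higher. All 8 fitted changes were positive and the median was 0.24. Without EV 3 there were 6 of 8 called higher, where 8.31% of all genes were. Without EV 2 or OE 1 there was 1, and without EV 1, OE 2 or OE 3 there were 0. In these fits 0.839% to 1.15% of all genes were called higher. BUB1B (chr15:40161023-40221123), which encodes the checkpoint protein BubR1, had 1971, 2148 and 2094 in EV and 2587, 2874 and 2859 in OE. Every OE library lay above every EV library, by a fitted 0.42 ± 0.10 (adjusted p = 0.00213), and BUB1B was called in 12 of 15 alternative fits. It was not called without EV 1, OE 2 or OE 3.

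BUB1 (chr2:110637528-110678063), its partner kinase, had 2234, 2352 and 2589 in EV and 2627, 2911 and 3325 in OE. The groups did not overlap, with OE 1 only just above EV 3, and the fitted change of 0.30 ± 0.13 missed the threshold (adjusted p = 0.185). CDC20 (chr1:43358981-43363203), the activator of the anaphase-promoting complex that the checkpoint holds back, had 6897, 6702 and 8542 in EV and 7879, 8650 and 9402 in OE, with EV 3 above OE 1 (0.23 ± 0.13, adjusted p = 0.457). Both were called without EV 3. TTK, MAD2L1 and PTTG1 were called in that fit as well, while UBE2C (0.04 ± 0.09) and ESPL1 (0.12 ± 0.12), which encode the ubiquitin-conjugating enzyme of the complex and separase, were called in none of the 15.

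None of the 4 genes of the chromosomal passenger complex was called, where 2.29% of all genes were called higher and 2.64% lower. Their median was 0.07. AURKB (chr17:8204733-8210600), its kinase, had 5362, 4808 and 6347 in EV and 4945, 5428 and 6070 in OE. The groups overlapped throughout, and the fitted change was -0.01 ± 0.14, with a 95% interval of -0.28 to 0.27 (adjusted p = 0.994). INCENP (0.05 ± 0.19), CDCA8 (0.10 ± 0.10) and BIRC5 (0.18 ± 0.15), the scaffold and targeting subunits, did not pass. BIRC5, which encodes survivin, was the 1 gene of the complex called without EV 3, where 8.31% of all genes were called higher. Without EV 1, EV 2, OE 1, OE 2 or OE 3 there were 0, where 0.839% to 1.15% of all genes were.

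The 6 kinetochore genes had a median of 0.12, and 0 were called with or without EV 3. Of all genes, 2.29% were called higher and 2.64% lower with EV 3, and 8.31% and 9.46% without it. CENPF (chr1:214603185-214664574), a large kinetochore and nuclear matrix protein gene, had 2630, 3121 and 1153 in EV and 2418, 2887 and 1845 in OE. EV 3 was lower than EV 1 and EV 2 by more than either differed from any OE library, and the fitted change was 0.05 with a standard error of 0.45 (adjusted p = 0.987). CENPE, a kinetochore motor, showed the same order with 318, 351 and 131 in EV and 282, 324 and 198 in OE (0.01 ± 0.32). Without EV 3 the values for CENPF and CENPE were -0.27 and -0.32, and neither passed. NDC80, NUF2, SPC25 and ZWINT, of the outer kinetochore, had fitted changes from 0.12 to 0.19 and overlapping groups.

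Genes of the spindle and its motors held 5 of the 8 calls, with 5 of 10 called higher and a median of 0.36. Over all genes, 2.29% were called higher. For 7 of 10 all OE values lay above all EV values, against 11.4% of the 16692 genes averaging at least 10 normalized counts. Without EV 3 there were 6 called (8.31% of all genes higher), without EV 2 there were 3 (1.09%), and by edgeR 1 (1.28%). Without EV 1, OE 1, OE 2 or OE 3 there were 0, where 0.839% to 1.15% of all genes were called higher. The OE libraries had 5547, 6221 and 6229 normalized counts of KIF11 (chr10:92574105-92655395), the motor that pushes the spindle poles apart, against 4487, 4867 and 4448 in EV (0.38 ± 0.10, adjusted p = 0.0071). KIF18A (chr11:28020619-28108156), a motor that limits the length of kinetochore microtubules, had 710.2, 815 and 846 in EV and 1053, 1117 and 1163 in OE, the second-highest fitted change of the 53 genes (0.49 ± 0.12, adjusted p = 0.00274). All 3 OE libraries exceeded all 3 EV libraries for both motors.

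The microtubule-binding genes GTSE1, DLGAP5 and NUSAP1 rose by 0.40 to 0.42. GTSE1 (chr22:46296870-46330810) had 1175, 1175 and 1167 in EV, the tightest triplet among the called genes, and 1446, 1680 and 1553 in OE (0.41 ± 0.11, adjusted p = 0.00605). DLGAP5 (chr14:55148112-55191608), which encodes the spindle protein HURP, had 1489, 1742 and 1500 in EV and 1936, 2214 and 2178 in OE (0.42 ± 0.12, adjusted p = 0.0144). NUSAP1 (chr15:41320794-41381050), which bundles spindle microtubules, had 3311, 3448 and 3771 in EV and 4170, 4626 and 5061 in OE (0.40 ± 0.12, adjusted p = 0.0196). In each of the 3 the lowest OE library lay above the highest EV library. For NUSAP1, 78.2% of the 50-base words of its annotated transcripts also occur in other annotated genes, most of them in 1 gene that has no row in the tables. GTSE1, DLGAP5 and NUSAP1 were each called in 9 of 15 alternative fits, KIF11 in 10 and KIF18A in 11.

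The other 5 spindle genes, KIF2C, KIF4A, TPX2, HMMR and ASPM, were not called. Their fitted changes ran from 0.07 for TPX2, which activates Aurora A at the spindle, to 0.34 for ASPM, which works at spindle poles. KIF2C and HMMR had no overlap between the groups, and ASPM had 2358, 2858 and 1676 in EV and 3002, 3156 and 2584 in OE, its lowest EV value again in EV 3.

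Among the 8 genes listed under cytokinesis, 2 were called, where 2.29% of all genes were called higher. All 8 fitted changes were positive, with a median of 0.18. KIF20A (chr5:138178719-138187723), a motor of the central spindle needed to complete division, had the highest fitted change of all 53 genes. It had 2382, 2526 and 2716 normalized counts in EV and 3597, 3849 and 4038 in OE, a fitted 0.59 ± 0.11 or 1.51-fold (adjusted p = 3.78e-06). The lowest OE library was above the highest EV library, and KIF20A was called in all 15 alternative fits, at 0.54 to 0.64. ANLN (chr7:36389821-36453791), the actin-binding protein anillin of the cleavage furrow, had 4125, 5058 and 4381 in EV and 5694, 5907 and 5958 in OE (0.37 ± 0.11, adjusted p = 0.0243), with no overlap although EV 2 was well above EV 1 and EV 3. Of the rest, KIF23 (0.16 ± 0.10) did not overlap between the groups and was not called. CDCA3 (0.36 ± 0.16), counted here by the list of roles and not for a shown part in cytokinesis, was called without EV 3. PRC1, RACGAP1, ECT2 and KIF20B were called in none of the 15 fits. Of the 50-base words of PRC1's transcripts, 55.1% also occur in other annotated genes, most of them in 1 gene that has no row in the tables, and PRC1 kept 71.6% of its stranded reads.

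**Figure D3:**
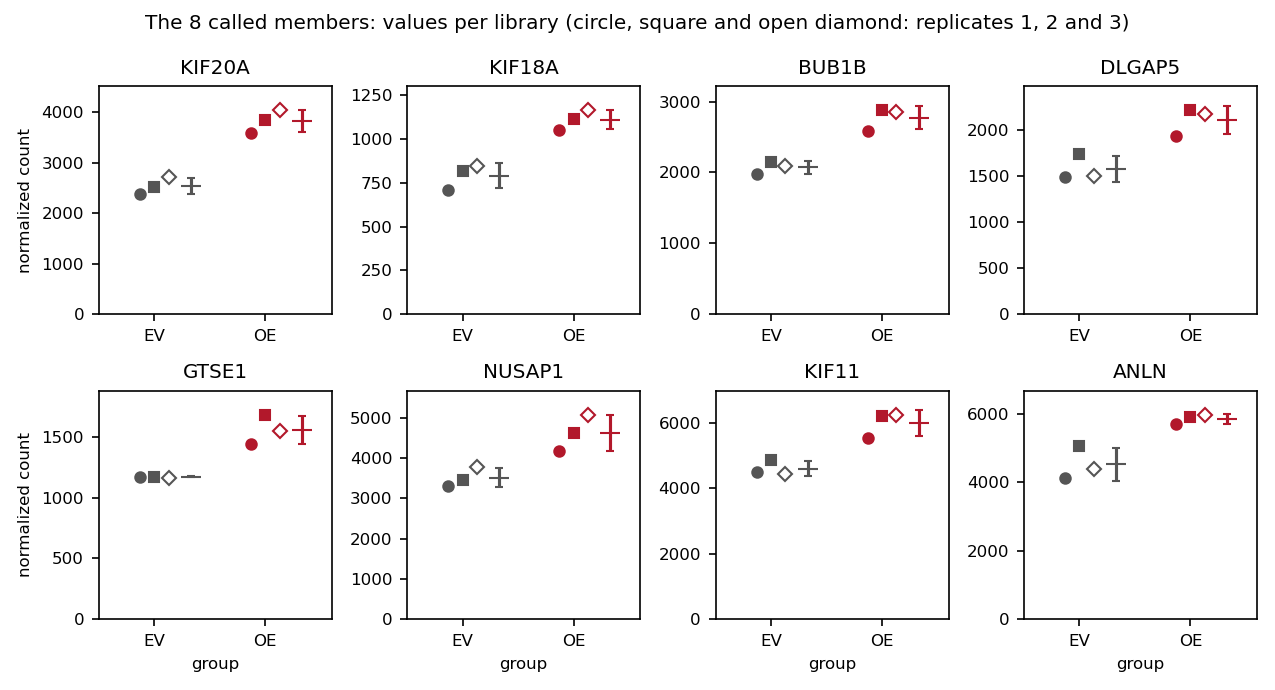
Normalized counts (vertical axes, from 0) of the 8 called genes in the EV (grey) and OE (red) libraries, with replicates 1, 2 and 3 as circle, square and open diamond, and the group mean ± SD (n = 3) to the right of the points. In each of the 8 panels the 3 OE values lie above the 3 EV values, most widely in KIF20A.

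None of the 6 genes of chromosome condensation and structure was called in the full comparison, where 2.29% of all genes were called higher and 2.64% lower. Their median of 0.09 was the second-lowest of the 7 roles. TOP2A (chr17:40388525-40417896), the topoisomerase that untangles sister chromatids, had 9641, 10440 and 7475 in EV and 10680, 11880 and 9837 in OE (0.23 ± 0.15, adjusted p = 0.516), with EV 2 above OE 3. MKI67 (chr10:128096659-128126423), the gene of the Ki-67 proliferation marker, had 3583, 4205 and 1860 in EV and 3077, 3385 and 2693 in OE. Its EV 1 and EV 2 values lay above all 3 OE values and its EV 3 value below all 3, and the fitted change of -0.08 ± 0.24 did not pass (adjusted p = 0.949). Without EV 3 the value was -0.35 and MKI67 was called lower, while without EV 1, EV 2 or OE 3 it was above 0.

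SMC4 (chr3:160399274-160434954), a condensin ATPase, had the lowest fitted change of the 53 genes, with 4357, 5043 and 2941 in EV and 3892, 4544 and 3258 in OE (-0.08 ± 0.20, adjusted p = 0.931). Its EV 3 value was the lowest of the 6 libraries, as for MKI67, and SMC4 kept 64.2% of its stranded reads. SMC2 (0.09 ± 0.20), NCAPG (0.09 ± 0.13) and NCAPH (0.11 ± 0.10), the other condensin subunits, were not called with or without EV 3, though NCAPH had no overlap between the groups.

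**Figure D4:**
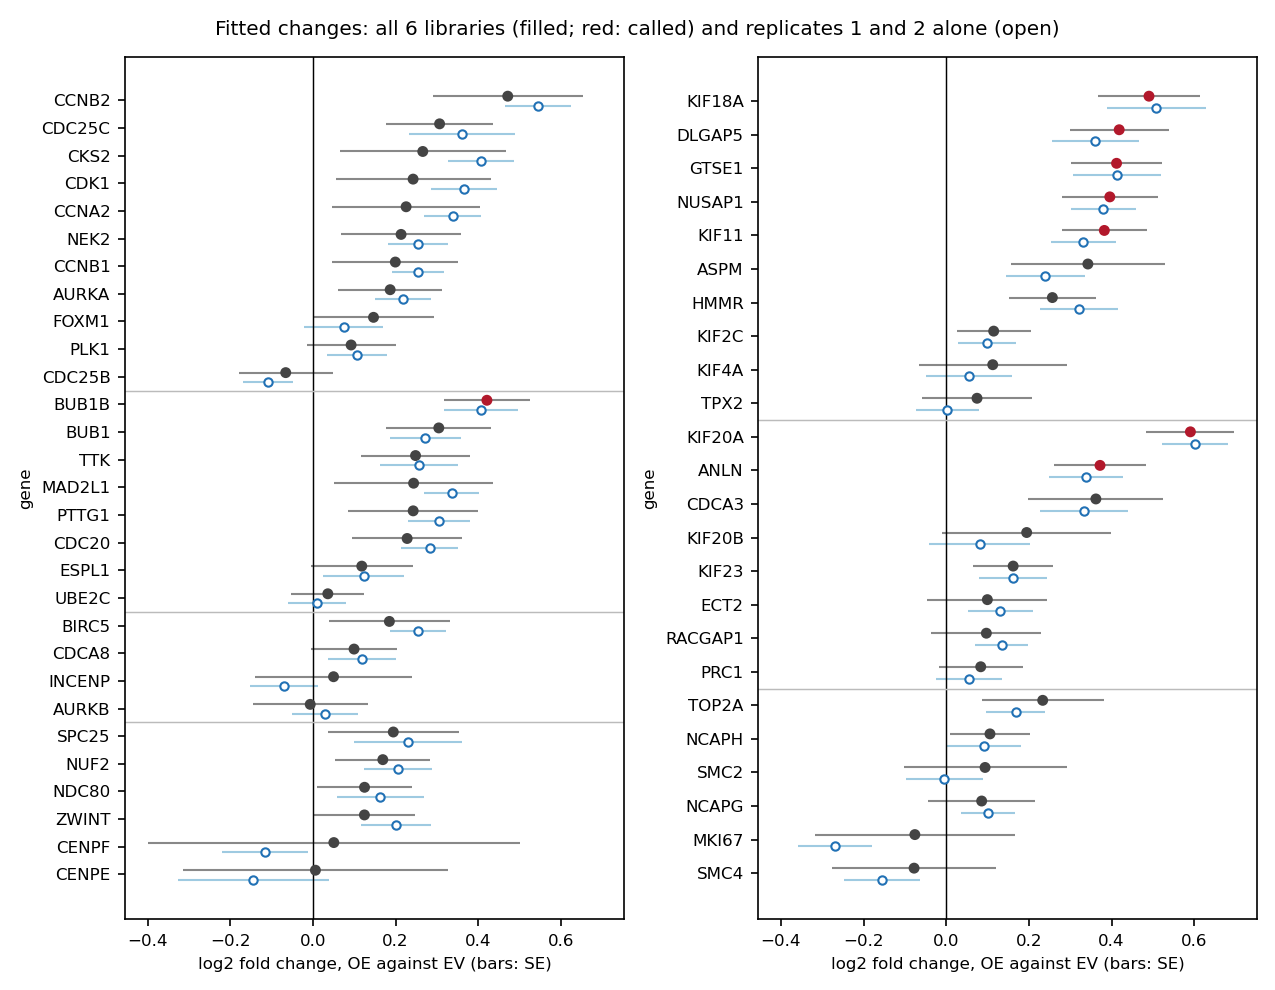
Fitted log2 fold change, OE against EV, with its SE (horizontal bars) for the 53 genes by role, from all 6 libraries (filled points, red where called) and from replicates 1 and 2 alone (open blue points). The SE is shorter with replicates 1 and 2 alone for all 53 genes, and values below 0 are found for CDC25B, MKI67, SMC4, INCENP, CENPF, CENPE and SMC2 in that fit.

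The deviation of the third replicates followed transcript length. Against the mean of EV 1 and EV 2, EV 3 was higher by a median log2 of 0.28 for the 27 genes whose longest annotated transcript had up to 3229 bases, and had a median of -0.13 for the 26 longer ones. OE 3 had medians of 0.20 and -0.08 against OE 1 and OE 2. Across the 53 genes, which share these libraries and are not independent, the deviation of EV 3 and log2 transcript length had a Pearson r of -0.72 (Spearman's rho with length -0.68), and that of OE 3 an r of -0.65 (rho -0.60). Over 16587 genes the rho was -0.25 for EV 3 and -0.21 for OE 3. GC content had a rho of 0.06 and 0.05 with the same deviations among the mitotic genes.

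The genes displaced most in EV 3 did not all follow their length. In EV 3, CENPE (-1.35), CENPF (-1.32) and MKI67 (-1.07) were lowest and CKS2 (0.69), MAD2L1 (0.63) and CDK1 (0.62) highest on the log2 scale against EV 1 and EV 2. The longest annotated transcripts of these genes had 8742 bases or more for the first 3 and 616 and 1948 bases for CKS2 and CDK1, but 5227 bases for MAD2L1. A fit on counts corrected for GC content and transcript length in each library called 8 mitotic genes, with CCNB2 in and DLGAP5 out, and a median of 0.16. Whether RNA integrity or another property of the pellets moved with the third replicates was not tested.

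**Figure D5:**
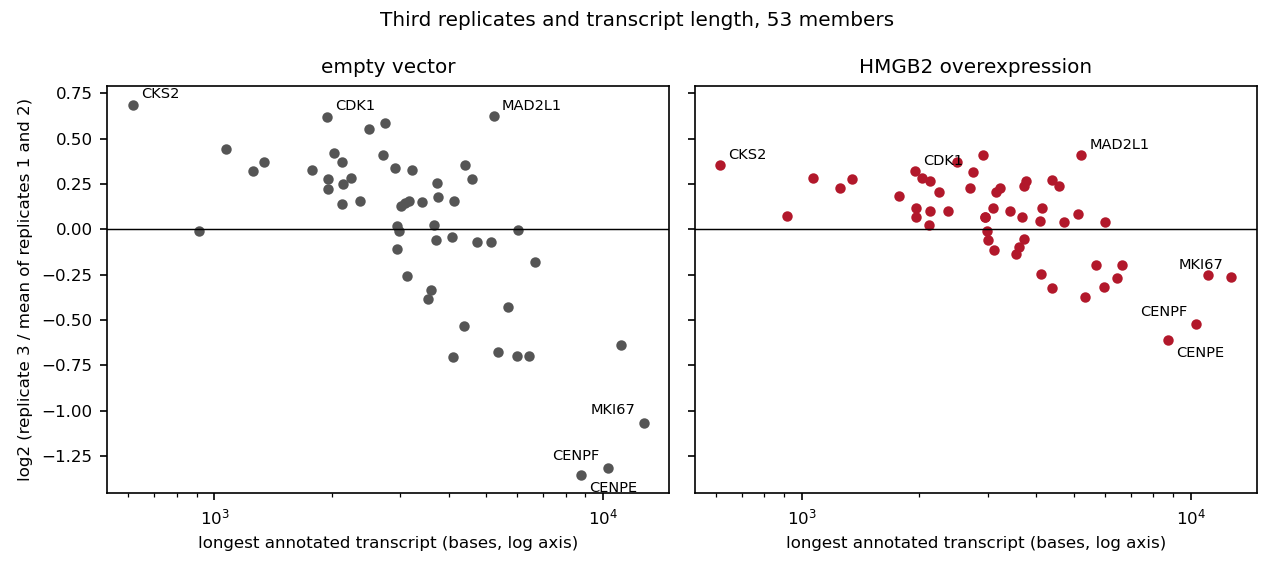
Log2 ratio of the third replicate to the mean of replicates 1 and 2 (vertical axis) against the longest annotated transcript in bases (horizontal log axis) for the 53 genes, in EV (left, grey) and OE (right, red). Both panels slope down, from CKS2, MAD2L1 and CDK1 above 0 to CENPE, CENPF and MKI67 below 0, and the range is wider in EV.

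Levels per length differed far more between the mitotic genes than between the groups. As the EV mean of normalized counts per kb of exon, CKS2, the CDK1-binding subunit, was highest at 14620, followed by CCNB1 (5121), CDC20 (3668) and UBE2C (3520). The lowest were CENPE (26.9), ESPL1 (166.7), KIF18A (175) and KIF20B (184.3). The called genes ran from 175 for KIF18A to 972.9 for NUSAP1, and in OE from 245.9 to 1280, so none of the most abundant mitotic transcripts was among them.

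Related gene lists were counted beside them. Of 55 other mitotic genes, 1 was called higher and 0 lower, with a median of 0.13, where 2.29% and 2.64% of all genes were called in these directions. The 1 was CKAP2 (chr13:52455429-52476628), a spindle microtubule protein, with 3283, 3762 and 3969 in EV and 4976, 4889 and 5394 in OE (0.47 ± 0.11, adjusted p = 0.00177) and no overlap. Without EV 3 there were 15 higher and 2 lower in this list, where 8.31% of all genes were called higher and 9.46% lower. CKAP2 was not called without EV 1, OE 1 or OE 3.

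Of 28 upstream regulators of G2/M genes, 2 were called higher and 3 lower, with a median of -0.03. Over all genes, 2.29% were called higher and 2.64% lower. Without EV 3 there were 4 higher and 5 lower in this list, where 8.31% of all genes were called higher and 9.46% lower. RB1 (chr13:48303744-48599436), the retinoblastoma repressor of E2F factors, had 3568, 4173 and 4344 in EV and 5145, 4980 and 5323 in OE (0.35 ± 0.11, adjusted p = 0.0378). RBBP4 (chr1:32651142-32686211), a histone-binding subunit of the DREAM complex, had 5392, 6021 and 6410 in EV and 7200, 7370 and 7932 in OE (0.34 ± 0.11, adjusted p = 0.0432). Both had OE libraries above all EV libraries, and both calls were lost in edgeR, without DESeq2's independent filter and in every fit without 1 library other than EV 3. RBBP4 also lost its call with the GC and length correction. RB1 lies on chromosome 13, as does CKAP2. The other genes of the related lists on that chromosome, TFDP1 (0.36), BORA (0.26), RFC3 (0.19) and SKA3 (0.13), were positive and not called. Whether the shared chromosome plays a part was not tested.

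Of the 3 that fell, CDKN2A (chr9:21967752-21995301), which encodes an inhibitor of CDK4 and CDK6, changed most, with 1139, 832 and 810.3 in EV and 579.5, 532 and 504 in OE (-0.78 ± 0.17, adjusted p = 0.000161). PKMYT1 (chr16:2968024-2980479), a kinase that inhibits CDK1, had 1713, 1672 and 1473 in EV and 1225, 1297 and 1169 in OE (-0.40 ± 0.12, adjusted p = 0.0166), and kept 41.0% of its stranded reads. The third was E2F1 (-0.39 ± 0.10). In all 3 the EV and OE libraries did not overlap. CDKN2A was called in all 15 alternative fits. PKMYT1 and E2F1 were not called by edgeR or without EV 1, OE 1, OE 2 or OE 3, nor was PKMYT1 without EV 2. MYBL2, which encodes B-MYB (-0.07 ± 0.11), and CDKN1A (-0.05 ± 0.09) did not pass.

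Of 56 genes of the G1/S transition and DNA replication, 0 were called higher and 2 lower, with a median of 0.01. In the same fit 2.29% of all genes were called higher and 2.64% lower. CDT1 (chr16:88803789-88809258), which licenses replication origins, had 6153, 6130 and 5152 in EV and 4157, 4157 and 3572 in OE (-0.55 ± 0.12, adjusted p = 0.000403), without overlap and in all 15 alternative fits. CCND1 (chr11:69641156-69654474), the D-type cyclin of G1, had 28100, 29030 and 16590 in EV and 16840, 17420 and 12850 in OE (-0.65 ± 0.21, adjusted p = 0.0402). Its EV 3 value lay below OE 1 and OE 2, so the groups overlapped, and the call was lost in edgeR, without DESeq2's independent filter and without any 1 library other than EV 3. Without EV 3 this list had 9 higher and 3 lower, beside the 8.31% and 9.46% of all genes in that fit.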

How the data were processed

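Poly(A) RNA of 3 EV and 3 OE libraries of A375 cells was measured by bulk RNA sequencing. Per the submitters' processing notes, reads were handled with bcl2fastq 2.20, FastQC, Trimmomatic and STAR against GRCh38; the STAR version and the annotation release are not given in the sources used here. The authors deposited raw gene counts, with no normalization, as STAR tables of 58302 Ensembl IDs and 4 summary lines. The summary lines entered neither size factors nor tests. The column for reads of either strand was used, in which a read falling in overlapping genes is not counted, whichever strand they are on. Ambiguous reads made up 10.7% to 11.4%. Multimapped reads, also uncounted, made up 10.6% in OE 3 and 2.58% to 4.89% in the other libraries. The library preparation marks no strand, so reads of a gene and of its antisense partner cannot be told apart.

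Symbols, coordinates and transcripts came from GENCODE 44 on GRCh38 (57532 IDs matched), and promoters from RefSeq. DESeq2 1.42.0 (R 4.3.3) with default settings and group as the only term, as in the study's methods, gave size factors, Wald tests, SE and Benjamini-Hochberg adjusted p-values over all genes, with calls at 0.05. Intervals are 95% intervals from the SE. Log2 ratios per library added 0.5 to each normalized count. Scripts were tested on simulated counts. Alternatives were edgeR 4.0.16 (quasi-likelihood), TMM factors, a filter of 10 counts in 3 libraries, no independent filter, summed stranded columns, a GC and length correction, the replicate number as a block, each library left out, a term for the third replicates and replicates 1 and 2 alone.

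The genes described in full were 12 core regulators whatever their values, every called gene, the 3 highest and 3 lowest fitted changes, HMGB2 and, from each related list, up to 2 called genes in each direction; further genes named with values were chosen after their values were seen. The mitotic genes, their roles, the related lists and the alternatives were chosen with earlier results of these data known.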

Additional observations from a re-analysis of the deposited data

How the results depend on the processing

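The count of 8 mitotic genes called (8 higher, 0 lower) became 3 by edgeR (3 higher), 22 with the replicate block (22 higher, where 6.09% of all genes were called higher), 26 with a term for the third replicates (26 higher) and 25 with replicates 1 and 2 alone (24 higher, 1 lower). Leaving out each library gave 1 to 25 called, 1 to 24 higher and 0 to 1 lower, the highest without EV 3. TMM factors, the count filter, no independent filter, summed stranded columns and the GC and length correction each gave 8, where 2.24%, 2.75%, 1.02%, 2.09% and 3.48% of all genes were called higher. The median fitted change kept its direction in all 15 alternatives, at 0.14 to 0.23, as did HMGB2, at 0.98 to 1.09. The replicate numbers are shared by the labels, which do not say whether they pair the samples. The deviations of same-numbered libraries correlated at 0.09, 0.13 and 0.33. EV 2 and EV 3 correlated best with the OE library of the same number, and EV 1 with OE 2 (0.20). With the replicate block, 1826 genes of all tested were called, against 930 without it. Direction changed for genes with fitted changes near 0. CENPE was -9e-04 with TMM factors, and with the GC and length correction CENPE was -0.0398, AURKB 0.0091, CDC25B 7e-04 and UBE2C -0.0057. With replicates 1 and 2 alone CENPE was -0.14, CENPF -0.12, INCENP -0.07, SMC2 -0.0048 and AURKB 0.0292. With each library left out, MKI67 ranged from -0.35 to 0.16, SMC4 from -0.269 to 0.0932, AURKB from -0.10 to 0.11, CENPE from -0.32 to 0.25, CENPF from -0.27 to 0.33, KIF20B from -0.0021 to 0.39, KIF4A from -0.043 to 0.24, INCENP from -0.15 to 0.19, TPX2 from -0.0288 to 0.15 and SMC2 from -0.10 to 0.23. The cause was not tested. With 3 pellets per line, changes under about the 0.37 of the weakest called gene mostly did not pass at this spread.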

Other observations

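The log2 ratio of OE to EV went with transcript length in opposite directions in the replicates. For the 53 mitotic genes the log2 ratio of OE to EV in replicates 1 and 2 had a Spearman's rho of -0.39 with the length of the longest annotated transcript, with medians of 0.25 for the 27 genes of up to 3229 bases and 0.10 for the 26 longer ones. Between OE 3 and EV 3 the rho was 0.49, with medians of 0.13 and 0.34. The points share libraries and are a description. By its construction, the log2 ratio of OE 3 to EV 3 equals that of replicates 1 and 2 plus the deviation of OE 3 minus that of EV 3. Its slope therefore contains the deviations with length described above and is not a separate result. No value over all genes is set beside these slopes. The fit of all 6 libraries averages the opposite slopes, with a rho of -0.21 and medians of 0.21 and 0.12.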
